A study of Mus musculus with 14 samples.

Results

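The 10 genes described here carry iron into heart cells, store it, release it, bring it into mitochondria, or sense it. They are Tfrc, Steap3, Fth1, Ftl1, Pcbp1, Slc40a1, Cp, Slc25a37, Slc25a28 and Ireb2, a list given by symbol and found among the 54532 genes of the count tables through the GENCODE M21 annotation. All 10 passed the filter on low counts in both comparisons below. The study asked how the hearts of mouse models with a mitochondrial gene defect respond, and looked at iron handling as one possible response.

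Iron bound to transferrin enters cells through the transferrin receptor, is reduced in the endosome, and is either used, stored in ferritin or exported by ferroportin. Mitochondria take up iron through the mitoferrins to build heme and iron-sulfur clusters. Iron regulatory proteins bind hairpins in messenger RNAs, called iron-responsive elements, and thereby block translation of ferritin and ferroportin messages and stabilise the transferrin receptor message when iron is scarce. Ferritin is thus known to be controlled largely at translation, which counts of messenger RNA do not read.

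The hearts came from C57BL/6 mice that the labels place at postnatal day 180. An older age is stated in the study's own text. One experiment held 4 libraries labelled WT and 4 labelled YG8-800, a line that lacks the mouse copy of its targeted gene and carries a hemizygous human transgene with an expanded repeat. The other held 3 female and 3 male libraries of KIKO-700, in which one allele is deleted and the other carries an expanded repeat. WT hearts of the KIKO-700 cohort were not analysed here, so KIKO-700 is compared only between the sexes, and its levels are set beside the other experiment without a test. Nothing in the labels says more about how the hearts of a group were related, so p-values measure the spread between these libraries.

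Each library was a QuantSeq 3′ library, which gives about 1 read per transcript end, with 5226233 to 11650840 reads counted to genes. Values are given as CPM, the counts of a gene per 1000000 reads counted, scaled over the 14 libraries by the TMM method, and are not divided by length because only transcript ends are read. WT 2 and WT 3 stood apart: 26 genes were at least 5 times lower in both than in every other library, against at most 2 genes for any other pair, and 18 of the 26 are processed pseudogenes. Although the study describes males only for YG8-800, Xist exceeded the summed Y-linked genes in 5 of the 8 libraries of that experiment (WT 1, 2 and 4 and YG8-800 1 and 3), whereas the KIKO-700 libraries matched their labelled sex. Groups are therefore called by their labels. Cardiomyocyte markers were abundant in every library, at a summed 13732 CPM or more.

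The iron-responsive elements of the members are shown because they are what links these genes to the iron regulatory proteins, and because they mark which messages are controlled by translation and which by stability. Each was found on the transcript strand as a C, 5 bases, the loop CAGTGN and 5 bases, with at least 4 of the 5 stem pairs formed, in the UTRs of the protein-coding transcripts of GENCODE M21 (GRCm38). Capitals mark the loop. Such a match occurred in a 5′ UTR of 0.941% and in a 3′ UTR of 3.98% of 21901 protein-coding genes, and in 4 of the members.
Tfrc, 3′ UTR, chr16:32631220-32631246, plus strand: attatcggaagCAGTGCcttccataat
Tfrc, 3′ UTR, chr16:32631599-32631625, plus strand: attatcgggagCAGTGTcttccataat
Tfrc, 3′ UTR, chr16:32631664-32631690, plus strand: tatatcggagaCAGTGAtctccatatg
Tfrc, 3′ UTR, chr16:32631711-32631737, plus strand: attatcgggaaCAGTGTttcccataat
Fth1, 5′ UTR, chr19:9982733-9982759, plus strand: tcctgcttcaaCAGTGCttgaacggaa
Ftl1, 5′ UTR, chr7:45459780-45459806, minus strand: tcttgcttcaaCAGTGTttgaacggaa
Slc40a1, 5′ UTR, chr1:45925466-45925492, minus strand: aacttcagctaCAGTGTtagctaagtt
All 7 elements had all 5 stem pairs. The search found none in the other 6 members, which says only that these letters were not there in the searched transcripts.

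No member differed between libraries labelled YG8-800 and WT at an adjusted p under 0.05 (edgeR quasi-likelihood test with Benjamini-Hochberg adjustment over 11875 genes), and neither did any other gene (0%; DESeq2 called 7 genes, none of them a member). At an unadjusted p under 0.05, 3 of the 10 members passed, against 718 genes or 6.05% of all tested. Pcbp1 and Steap3 were lower and Slc25a28 was higher in YG8-800. The median log2 difference of the members was -0.078, beside -0.0056 for all tested genes. Leaving out WT 2 and WT 3 left 0 members at the unadjusted threshold, beside 713 of 12579 genes. Keeping only the libraries in which Xist exceeded the Y-linked sum also left 0 members, beside 282 of 12527 genes. Both settings hold fewer libraries. With Xist as a covariate and all 8 libraries kept, 3 members passed, beside 713 of 11875 genes.

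**Figure D1:**
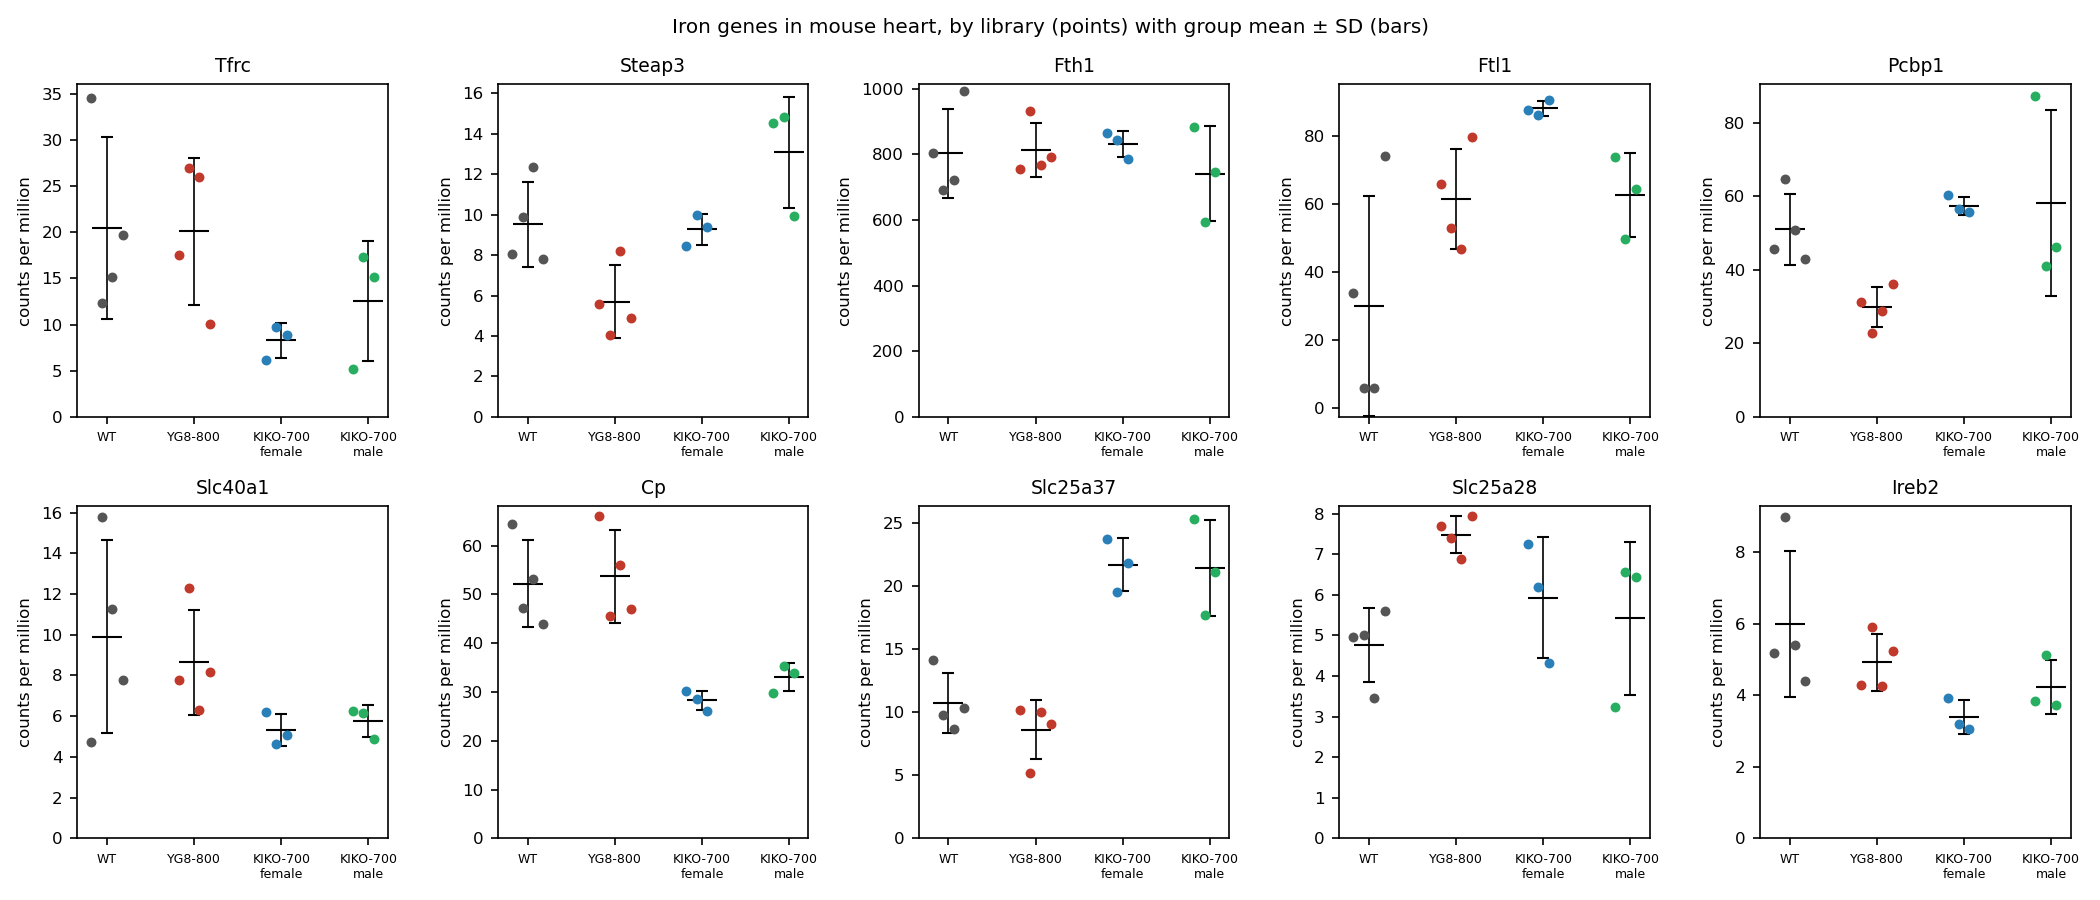
Level of each gene in CPM on the y axis, by group on the x axis, each point 1 library and the bars the group mean ± SD. Pcbp1 and Slc25a28 do not overlap between WT and YG8-800, Ftl1 is near the axis in WT 2 and WT 3, and Slc25a37 and Cp separate the KIKO-700 libraries from the others. The share of all genes that separate the 2 experiments was not counted.

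Of the uptake genes, Tfrc encodes the transferrin receptor. In WT 1 to 4 it stood at 34.6, 12.3, 15.2 and 19.7 CPM, and in YG8-800 1 to 4 at 17.5, 26.98, 26.0 and 10.03 CPM. The groups overlapped almost wholly, with WT 1 the highest and YG8-800 4 the lowest, and the log2 difference was 0.010 ± 0.35 (SE, adjusted p = 0.998). KIKO-700 hearts had 6.19, 9.75 and 8.89 CPM of Tfrc in females and 5.16, 17.3 and 15.2 CPM in males. Every female lay below every library of the other experiment, whereas the male range overlapped those of WT and YG8-800. How many of all genes separate the females in this way was not counted. Male 1 lay below every female and the other males above them, so the male minus female log2 difference of 0.60 ± 0.38 had an adjusted p of 0.819.

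Steap3, the endosomal ferrireductase that reduces iron released from transferrin, measured 8.03, 9.87, 12.4 and 7.80 CPM in WT and 5.6, 4.06, 8.21 and 4.90 CPM in YG8-800. Only YG8-800 3 reached into the WT range. The log2 difference was -0.71 ± 0.30, with an edgeR unadjusted p of 0.0323 and an adjusted p of 0.811. It was -0.44 ± 0.35 without WT 2 and WT 3 (edgeR unadjusted p = 0.222) and -0.29 ± 0.39 in the libraries with Xist above the Y-linked sum (edgeR unadjusted p = 0.478). Female KIKO-700 hearts had 8.45, 9.97 and 9.40 CPM and male hearts 14.5, 14.8 and 9.91 CPM. Male 3 was within the female range and the other 2 were above it, for a log2 difference of 0.48 ± 0.20 (edgeR unadjusted p = 0.030, adjusted p = 0.650).

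Among the storage genes, Fth1, the ferritin heavy chain with ferroxidase activity, was the most abundant member by transcript-end counts. It ranged from 692 to 993 CPM in WT and from 756 to 933 CPM in YG8-800, and from 786 to 863 CPM in KIKO-700 females and 593 to 883 CPM in males. All 4 groups overlapped, and the group means, 740 to 830 CPM, were closer to each other than the larger SD of the neighbours in their order. The log2 differences were 0.046 ± 0.26 for YG8-800 minus WT and -0.17 ± 0.17 for male minus female KIKO-700.

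Ftl1, the ferritin light chain, which has no ferroxidase site and aids mineral formation, was the most variable member. WT 1 to 4 gave 33.9, 6.05, 5.86 and 74.2 CPM, and YG8-800 1 to 4 gave 65.9, 53.0, 46.6 and 79.8 CPM. WT 2 and WT 3 were far below every other library, while WT 4 lay among the YG8-800 libraries. The log2 difference was 1.05 ± 0.78 (edgeR adjusted p = 0.884). It became 0.21 ± 0.35 without WT 2 and WT 3, and 2.08 ± 0.59 without WT 4 (edgeR unadjusted p = 0.0056, adjusted p = 0.143). Ftl1 is itself 1 of the 26 genes that set WT 2 and WT 3 apart. A smaller difference without these libraries was therefore fixed in advance.

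Gm22133, annotated as a miRNA gene of 109 bases at chr7:45458089-45458197 on the minus strand (GRCm38), lies wholly within the last exon of Ftl1 on the same strand. Its counts were 301, 50, 4 and 473 in WT 1 to 4, where those of Ftl1 were 321, 76, 27 and 504. In YG8-800 1 to 4, Gm22133 had 631, 385, 301 and 696 counts and Ftl1 659, 430, 318 and 732. The 2 genes moved together and Gm22133 never exceeded Ftl1 in the 14 libraries.

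Taking the Gm22133 counts from those of Ftl1 left 20, 26, 23 and 31 counts in WT and 28, 45, 17 and 36 in YG8-800. Scaled, the remainder was 2.11, 2.07, 4.99 and 4.56 CPM in WT and 2.49 to 5.54 CPM in YG8-800, so that the groups overlapped, with WT 2 lowest and WT 3 among the higher libraries. The log2 difference was then 0.17 ± 0.42 (edgeR adjusted p = 0.969), with the subtraction chosen after the values were seen. Whether each read in the window was counted for both genes is not given in the sources used here, and the remainder rests on few counts.

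Ferritin-like sequence occurs elsewhere in the genome. Of 415 stretches of 86 bases, the read length, in the last 500 bases of Ftl1, 233 (56.1%) also occurred exactly in transcripts of 5 other genes, and 22 (5.3%) of those of Fth1 occurred in Gm6977, a processed pseudogene on the X chromosome. Gm6977 had 83, 13, 0 and 244 counts in WT and 901, 363, 197 and 434 in YG8-800. The WT range lay partly within the YG8-800 range, with WT 2 and WT 3 lowest. Fth1 itself was also lowest in them within this experiment, at 692 and 721 CPM, but by less, the next library being at 756 CPM. Gm15590, 1 of the 5 genes with Ftl1 stretches, had 7, 1, 0 and 36 counts in WT and 58, 98, 24 and 52 in YG8-800. Adding the counts of all such genes moved the log2 difference to 0.12 ± 0.26 for Fth1 and 1.15 ± 0.80 for Ftl1. For the other 8 members no such stretch was shared. The part of pseudogene sequence in the ferritin values was not tested further.

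**Figure D2:**
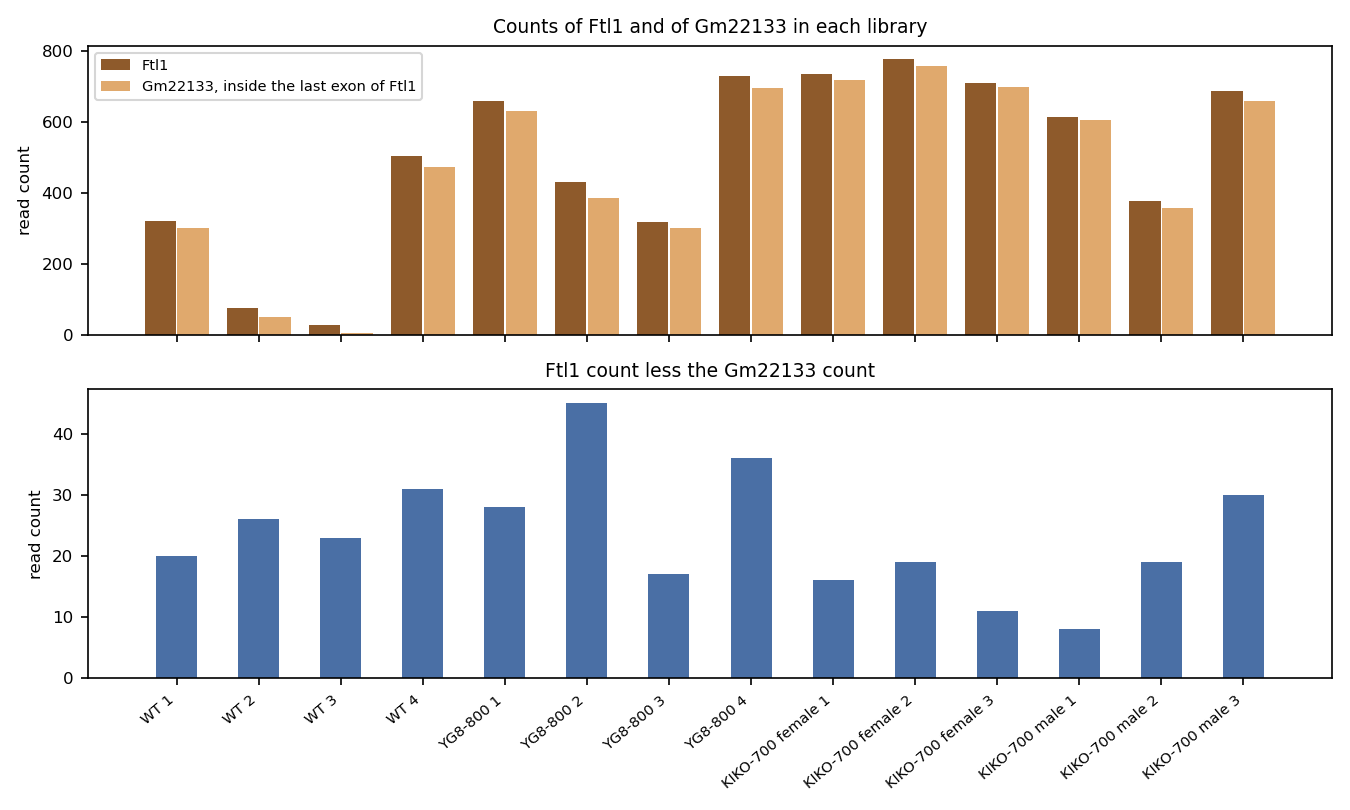
Read counts (y axis) in each of the 14 libraries (x axis): above, Ftl1 beside Gm22133, and below, the Ftl1 count less the Gm22133 count. WT 2 and WT 3 have 76 and 27 Ftl1 counts and 26 and 23 after the subtraction, within the range of raw counts of the other libraries.

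In KIKO-700 the Ftl1 level was 87.6, 86.2 and 90.4 CPM in females and 73.8, 49.6 and 64.4 CPM in males, with every male below every female. The log2 difference was -0.50 ± 0.17 (edgeR unadjusted p = 0.0101, adjusted p = 0.555). Less Gm22133, females had 16, 19 and 11 counts and males 8, 19 and 30, and the log2 difference was 0.21 ± 0.40, of the opposite sign. The remainder rests on at most 30 counts a library, and where in the gene the sexes differ was not tested.

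Pcbp1, an RNA-binding protein that also delivers iron to ferritin, showed the smallest unadjusted p of the members between YG8-800 and WT. WT 1 to 4 had 45.7, 64.6, 50.8 and 43.0 CPM, and YG8-800 1 to 4 had 31.3, 22.9, 28.9 and 36.1 CPM. Every YG8-800 library was below every WT library. The log2 difference was -0.74 ± 0.24 (edgeR unadjusted p = 0.00866, adjusted p = 0.786), and it was -0.53 ± 0.28 without WT 2 and WT 3 (edgeR unadjusted p = 0.0730). Ranges did not overlap for 2 of the 10 members in this comparison, Pcbp1 and Slc25a28, against 3.88% of all tested genes. In KIKO-700 Pcbp1 had 60.2, 56.5 and 55.6 CPM in females and 87.2, 41.0 and 46.1 CPM in males. Male 1 alone was above the females, and the log2 difference of 0.0045 ± 0.24 became -0.40 ± 0.13 without it.

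For release of iron, Slc40a1 encodes ferroportin, the only known iron exporter of mammalian cells. It ranged from 4.76 to 15.8 CPM in WT, with WT 2 highest and WT 1 lowest, and from 6.31 to 12.3 CPM in YG8-800, within the WT range. The log2 difference of -0.17 ± 0.36 turned to 0.50 without WT 2 and WT 3. KIKO-700 libraries held 4.65 to 6.19 CPM in females and 4.86 to 6.24 CPM in males, for a log2 difference of 0.10 ± 0.22. The means were in the order KIKO-700 female, male, YG8-800, WT, and of these neighbours only KIKO-700 male and YG8-800 did not overlap. For that pair of groups the share over all genes was not counted.

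Cp, ceruloplasmin, a copper ferroxidase that oxidises iron as it leaves cells, was at 44.0 to 64.4 CPM in WT and 45.6 to 66.1 CPM in YG8-800, with a log2 difference of 0.079 ± 0.23. It was at 26.2 to 30.1 CPM in KIKO-700 females and 29.8 to 35.3 CPM in males, a log2 difference of 0.22 ± 0.15. All 6 KIKO-700 libraries were below all 8 of the other experiment. How many of all genes separate the experiments was not counted. Liver makes most of the ceruloplasmin in blood, and the 3 liver markers Alb, Apoa1 and Ttr summed to 0.528 to 2.87 CPM in WT, 0.739 to 5.87 CPM in YG8-800, 9.29 to 27.1 CPM in KIKO-700 females and 1.96 to 403 CPM in KIKO-700 males, where 402 CPM in male 2 were Ttr. The 6 fibroblast markers summed to 807 to 1384 CPM in WT and 873 to 1462 CPM in YG8-800. They summed to 563 to 647 CPM in KIKO-700 females and 436 to 735 CPM in males. Taken singly, Col1a1, Col1a2 and Tcf21 overlapped between the experiments, whereas Pdgfra, Dcn and Col3a1 did not. The sum of the 5 endothelial markers went the other way, at 181 to 292, 175 to 232, 360 to 393 and 369 to 493 CPM in the same order. Of these, Tie1 and Egfl7 separated the experiments, whereas Pecam1, Cdh5 and Kdr overlapped. The part of liver RNA, or of any cell type, in the Cp level was not tested.

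The mitoferrins import iron across the inner mitochondrial membrane. Slc25a28, mitoferrin 2, the form used widely outside the erythroid lineage, had 4.97, 5.02, 3.47 and 5.59 CPM in WT and 7.70, 7.39, 6.89 and 7.96 CPM in YG8-800. Every YG8-800 library was above every WT library, from 16 to 77 counts each. The log2 difference was 0.68 ± 0.27 (edgeR unadjusted p = 0.0260, adjusted p = 0.787), and it was 0.54 ± 0.33 without WT 2 and WT 3 (edgeR unadjusted p = 0.117). In KIKO-700 Slc25a28 was 7.26, 6.20 and 4.32 CPM in females and 3.24, 6.56 and 6.45 CPM in males, and the groups overlapped.

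Slc25a37, mitoferrin 1, is the form that developing red cells depend on. It measured 14.2, 9.79, 8.68 and 10.3 CPM in WT and 10.2, 5.17, 9.97 and 9.05 CPM in YG8-800, with YG8-800 2 lowest and WT 1 highest and a log2 difference of -0.28 ± 0.28. KIKO-700 libraries had 23.7, 19.5 and 21.8 CPM in females and 25.3, 17.7 and 21.1 CPM in males, all above all 8 libraries of the other experiment. As for Cp, the share of all genes separated in this way was not counted. The sexes overlapped, with a log2 difference of -0.025 ± 0.17.

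The count ratio of Slc25a37 to Slc25a28 within a library does not depend on scaling. It was 2.85, 1.95, 2.5 and 1.84 in WT and 1.32, 0.7, 1.45 and 1.14 in YG8-800, with no overlap. The ratio was 0.494 times as high in YG8-800, a log2 difference of -1.02 (exact two-sided permutation test, p = 0.0286, the smallest that 4 against 4 libraries allow, adjusted p = 0.143 over 5 ratios). In KIKO-700 it was 3.26, 3.14 and 5.06 in females and 7.81, 2.70 and 3.28 in males, and the exact permutation p was 0.80. The other 4 ratios, of Fth1 to Ftl1, Tfrc to Fth1, Cp to Slc40a1 and Ireb2 to Aco1, had exact permutation p-values of 0.0857 to 0.971 for YG8-800 against WT and 0.10 to 0.70 between KIKO-700 sexes, where 0.10 is the smallest possible.

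Over the 14 libraries the gene most like Slc25a37 was Alas2, the erythroid enzyme of heme synthesis (Pearson r = 0.973 on log2 CPM, and 0.861 after each experiment was centred on its mean). Alas2 was at 4.43 to 16.5 CPM in the YG8-800 experiment and at 34.9 to 49.7 CPM in KIKO-700. The 5 erythroid and blood genes, 4 globins and Alas2, summed to 2024 to 5740 CPM in WT, 1303 to 4416 CPM in YG8-800, 14978 to 17173 CPM in KIKO-700 females and 13477 to 19420 CPM in KIKO-700 males, and none of them was at 0.

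Within the YG8-800 experiment, Slc25a37 and that sum had a Pearson r of 0.869 (exact permutation p = 0.00288, adjusted p = 0.00575 over 2 relations) and a Spearman rho of 0.833 (exact permutation p = 0.0154, adjusted p = 0.0308) over 8 libraries. Without the 2 libraries farthest from the median sum, r was 0.630. Over the 6 KIKO-700 libraries r was 0.643 (exact permutation p = 0.172) and rho 0.429 (exact permutation p = 0.419). The relation was chosen after the values were seen, and Alas2 came out nearest among 4595 genes in these same libraries. The permutation p-values and their adjustment over 2 relations do not cover that search. Libraries were also shuffled across the WT and YG8-800 labels. These values are therefore a description only, and the part of blood in the Slc25a37 level was not tested. In whole hearts more cells of a type and more RNA per cell cannot be told apart.

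**Figure D3:**
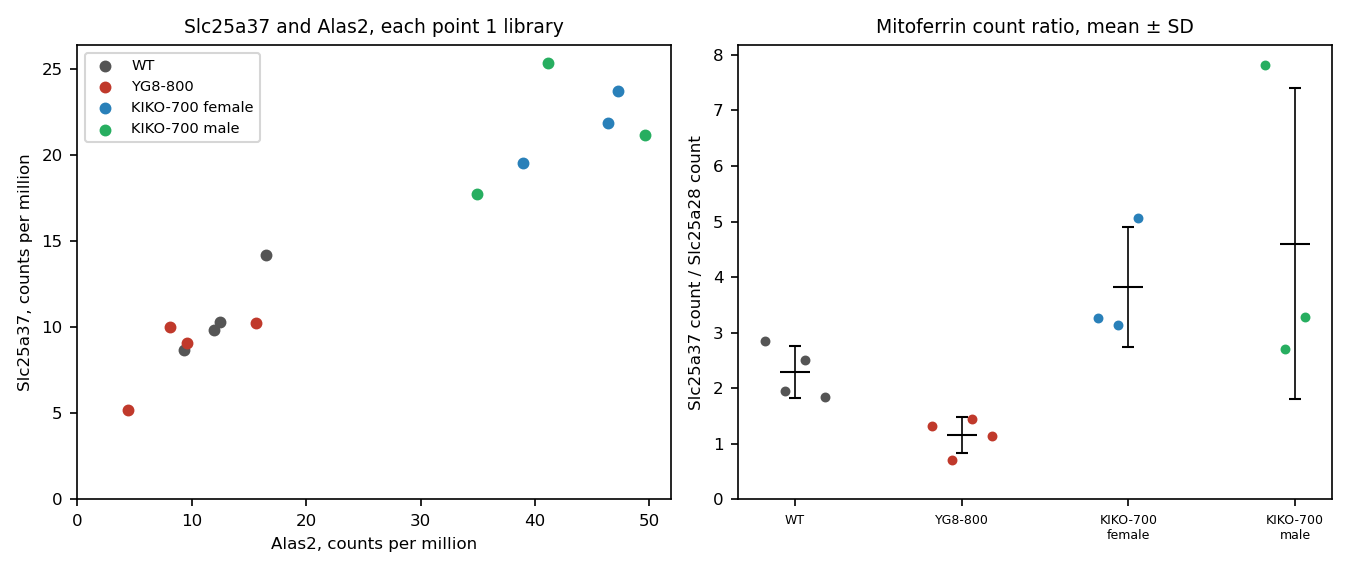
Left, Slc25a37 against Alas2, both in CPM, each point 1 of 14 libraries, where the KIKO-700 libraries lie apart at 17.7 CPM or more of Slc25a37. Right, the ratio of Slc25a37 to Slc25a28 counts by group, points for libraries and bars for mean ± SD, with YG8-800 at 0.7 to 1.45 and WT at 1.84 to 2.85.

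Ireb2 encodes iron regulatory protein 2, one of the proteins that bind the elements printed above. It was the least abundant member in most libraries, at 24 to 113 counts. WT held 4.42 to 8.996 CPM and YG8-800 4.25 to 5.91 CPM, WT 2 being highest, and the log2 difference was -0.26 ± 0.31. KIKO-700 females held 3.05 to 3.93 CPM and males 3.74 to 5.12 CPM, for a log2 difference of 0.30 ± 0.25. The ranges of neighbouring groups overlapped throughout, although every KIKO-700 female lay below every library of the other experiment. As for Tfrc, the share of all genes separated in this way was not counted.

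Between KIKO-700 males and females, 0 of the 10 members passed an adjusted p under 0.05 with edgeR, against 8 of 11801 genes (0.0678%), and 2, Ftl1 and Steap3, passed an unadjusted p under 0.05, against 7.14% of genes. Ranges did not overlap for 1 member, Ftl1, against 12.6% of genes. The median log2 difference was 0.053 for the members and 0.0059 for all tested genes. Male 1 decides part of this. Without it, with 2 males left, 864 of 12245 genes passed the adjusted threshold and 2610 the unadjusted one. Among the members Tfrc then rose by a log2 of 0.96 ± 0.18 (edgeR adjusted p = 0.00202). Ftl1 fell by 0.62 on the log2 scale (edgeR adjusted p = 0.00624). The library left out was the only male with Tfrc below the females, so the Tfrc value depends on that choice.

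**Figure D4:**
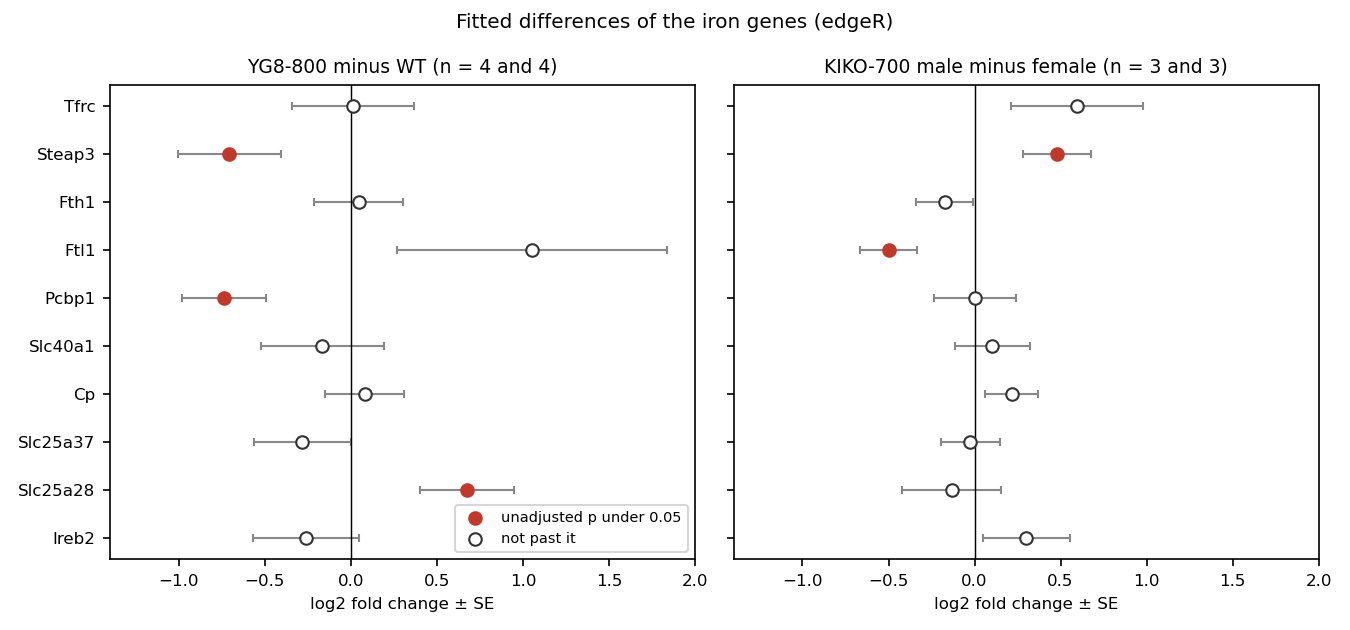
Fitted log2 difference ± SE (x axis) of each gene, YG8-800 minus WT on the left and KIKO-700 male minus female on the right, filled points having an unadjusted p under 0.05. Steap3, Pcbp1 and Slc25a28 are filled on the left and Steap3 and Ftl1 on the right, and no gene shown passed the adjusted threshold.

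Of 50 other iron genes listed by pathway step, 29 were tested between YG8-800 and WT, 0 passed the adjusted threshold, and at an unadjusted edgeR p under 0.05 there were 0 with higher and 2 with lower levels, a share near the 6.05% of all tested genes. Those 2 were Cd163, the macrophage receptor for hemoglobin bound to haptoglobin, at 15.9 ± 4.05 CPM in WT and 7.41 ± 4.35 CPM in YG8-800 (SD, log2 difference -1.05 ± 0.38), and Neo1, a co-receptor of the hepcidin pathway, at 16.5 ± 6.24 and 9.54 ± 1.98 CPM (log2 difference -0.76 ± 0.29). All 11 tested uptake genes, the 4 regulatory genes and the 4 mitochondrial import partners stayed above an unadjusted p of 0.05. The median log2 difference of the 29 genes was -0.14, beside -0.0056 for all genes. Cd163 is itself a macrophage marker, and the 8 macrophage markers summed to 398 to 554 CPM in WT and 295 to 422 CPM in YG8-800, with none at 0.

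In KIKO-700, 29 of the 50 were tested, and 2 were higher in males and 0 lower at an unadjusted p under 0.05, again a share near the 7.14% of all tested genes. They were Pcbp4, a relative of Pcbp1, at 22.3 ± 5.36 CPM in females and 35.4 ± 7.22 CPM in males (log2 difference 0.66 ± 0.20), and Cd163, at 7.56 ± 1.08 and 10.6 ± 1.99 CPM (log2 difference 0.46 ± 0.20). The 8 macrophage markers summed to 550 to 683 CPM in females and 468 to 603 CPM in males. The median log2 difference of the 29 was 0.068, beside 0.0059 for all genes.

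For each member the 2 protein-coding genes of at least 10 CPM most like it over the 14 libraries were named, among 4595 genes, as a description only. Ftl1 was nearest to Mrpl54 and Ndufs8 (r = 0.989 and 0.983), Pcbp1 to Gprasp1 and Rftn1 (0.976 and 0.959), and Cp to U2surp and Tnpo3 (0.968 and 0.943). Steap3 was nearest to Trmt112 and Tbc1d9b (0.932 and 0.922), Slc40a1 to Emp1 and Dnaja3 (0.931 and 0.924), and Ireb2 to Dlat and Cobll1 (0.914 and 0.907). Slc25a37 had Mark4 second (0.970), Slc25a28 had Gm21987 and Pim1 (0.864 and 0.831), Tfrc had Myo10 and Ttc3 (0.860 and 0.849), and Fth1 had Naxd and Immp2l (0.840 and 0.838). These libraries share depth and the 2 experiments, and after each experiment was centred the same values ran from 0.715 to 0.988.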

How the data were processed

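QuantSeq 3′ FWD libraries of 14 hearts were used. The authors deposited whole-number read counts per Ensembl gene for each library, without normalization. Alignment and counting are described in different ways: with Rsubread and stranded featureCounts in the study's methods, and with STAR 2.5.0a, with HTSeq 0.6.1 and the build GRCm38.p6 in the submitters' processing notes. Symbols came from GENCODE M21, which matched 54495 of 54532 identifiers. The members, gene lists and tests were chosen with earlier results of these data known.

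In R 4.3.3, edgeR 4.0.16 was used to filter genes (filterByExpr), to set TMM factors and to run its robust quasi-likelihood fit across all genes, with Benjamini-Hochberg adjustment and a threshold of 0.05. The unadjusted count is given because the study counts genes in that way. Ratios of counts were tested by exact permutation over libraries. Genes named are the members, up to 3 of the wider iron list per comparison and direction with the smallest p, and the 2 genes nearest each member. The scripts were tested on simulated data. Alternatives were RLE, upper-quartile and library-size scaling, other filters, DESeq2 1.42.0, limma 3.58.1 (voom and trend), the replicate number as a block, all 14 libraries in 1 fit, pseudogenes added, an Xist covariate and each library left out. Subtracting Gm22133 and adding the genes with shared stretches were chosen after seeing the data. Results that need items withheld for evaluation, among them the check of the targeted gene, are not reported here.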

Additional observations from a re-analysis of the deposited data

How the results depend on the processing

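Precision was limited by low counts (16 to 113 for Slc25a28 and Ireb2) and by groups of 3 or 4. No member passed the adjusted threshold under any alternative except without KIKO-700 male 1 (Tfrc and Ftl1, 2 members; range 0 to 2 over the libraries left out). For YG8-800 against WT, the 3 members at an unadjusted p under 0.05 became 0 with the libraries in which Xist exceeded the Y-linked sum and 0 without WT 2 and WT 3, and 1 to 4 when single libraries were left out. The unadjusted count over all genes, 718 in the main fit, was 282, 713 and 484 to 1695 in these settings, in the same order. Between KIKO-700 sexes the 2 became 1 with DESeq2, 1 less Gm22133, 0 with all 14 libraries in 1 fit, and 0 to 6 when single libraries were left out. The unadjusted count over all genes moved too, from 843 in the main fit to 566 with DESeq2 and 842 less Gm22133. That count was 186 with all 14 libraries and 460 to 2610 with single libraries left out. The replicate numbers did not pair the libraries (correlations of -0.225, 0.253, -0.0303 and 0.132 in the YG8-800 experiment and -0.164, -0.038 and -0.192 in KIKO-700). With the replicate block 0 members passed the adjusted threshold in either comparison, 4 and 2 passed the unadjusted one, and Ftl1 was at 1.79.

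Signs turned mostly for differences near 0, and the cause was not tested. For YG8-800 against WT, Tfrc was -0.025 with upper-quartile factors, -0.18 with library size alone, which moved the median of all genes to -0.21, -0.0072 with no filter, -0.032 with all 14 libraries and -0.39 without WT 2 and WT 3, and -0.17 to 0.35 with single libraries left out. Fth1 was -0.11 with library size alone, -0.085 with the libraries high in Xist, -0.11 without WT 2 and WT 3 and -0.024 to 0.19 with single libraries left out. Slc40a1 was 0.50, and Ireb2 0.077, without WT 2 and WT 3, and they ran from -0.42 to 0.16 and -0.37 to 0.012 with single libraries left out. Cp was -0.15 with library size alone and -0.037 to 0.17 with single libraries left out. In KIKO-700, Ftl1 was 0.21, and the log2 ratio of Fth1 to Ftl1 -0.27, less Gm22133. Pcbp1 was -0.016 with upper-quartile factors, -0.075 with limma-voom, -0.074 with limma-trend, -0.072 with the replicate block and -0.40 to 0.21 with single libraries left out, where Slc25a28 ran from -0.31 to 0.13 and Slc25a37 from -0.15 to 0.098. Of the log2 ratios with single libraries left out, for YG8-800 Tfrc to Fth1 ran from -0.22 to 0.25, Cp to Slc40a1 from -0.17 to 0.56 and Ireb2 to Aco1 from -0.17 to 0.29, and for KIKO-700 Slc25a37 to Slc25a28 from -0.33 to 0.44 and Cp to Slc40a1 from -0.035 to 0.24. Over all genes, 0 adjusted calls for YG8-800 against WT became 107 with no filter, 7 with DESeq2, 1 with all 14 libraries and 146 without WT 4, and the 8 between KIKO-700 sexes became 105 with no filter, 2 with at least 10 counts in every library, 18 with DESeq2, 0 with all 14 libraries and 864 without male 1. Of the unadjusted calls for YG8-800, 361 of 718 were higher, and 171 of 846 with library size alone.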
